A study of Mus musculus with 4 samples.

Results

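Cx3cr1 Ccr2 macrophages of the mouse liver were examined here as cells with a strong complement C1q signal and at least some message of the chemokine receptor genes Cx3cr1 or Ccr2, without the genes that mark the neighbouring liver macrophage types. A cell was a member when it held at least 10 UMIs (distinct molecules) of C1qa, C1qb and C1qc together and at least 2 UMIs of Cx3cr1 and Ccr2 together. It held 0 UMIs of Clec4f and Timd4, which mark resident Kupffer cells, 0 of Spp1 and Gpnmb, which mark lipid-associated macrophages, and 0 of Xcr1 and Clec9a, which mark conventional type 1 dendritic cells. It held no more than 1 UMI of Cxcl9, and 0 UMIs of the T cell genes Cd3d, Cd3e and Cd3g and of the B cell genes Cd79a and Cd79b. The members were thus chosen by their measured UMIs of these genes. The rule gave 181 members among 31290 kept cells, or 0.578%.

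The cells came from livers of male C57BL/6J mice, which were young when the diets began. The NCD group was fed normal chow and the HFD group a high-fat diet. The JQF group was fed the same high-fat diet, followed by daily gavage of Jiangtang Qingre Formula, a formula of several herbs. The study text does not state whether that diet went on during the gavage. The NCD and HFD mice received distilled water by gavage. There was 1 library for NCD, 2 for HFD and 1 for JQF, and the study describes each as 1 mouse, so that the spread between animals was known for HFD alone. The livers were perfused and digested, and dead cells were removed; how much each cell type was lost in that step was not measured. The GEO fields describe the samples as immune cells and also name a stem cell line, which the data do not show, since these are mixed liver suspensions.

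Circulating monocytes carry Ccr2, the receptor that guides them out of the bone marrow and into inflamed tissue, and many carry Cx3cr1, the receptor for fractalkine. Macrophages make C1q, the recognition protein of the classical complement pathway, and monocytes make little of it. When resident Kupffer cells are lost, as in fatty liver disease, monocytes enter the liver and can take on macrophage genes, and cells with both kinds of message are often described as being on that path. The word transitional in the usual name of such cells refers to that path, which a single time point does not measure, so the cells are described here by the rule and by their genes.

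The libraries held 5975 (NCD), 6516 (HFD replicate 1), 10259 (HFD replicate 2) and 8540 (JQF) kept cells, with medians of 13081, 7608, 7874 and 8884 UMIs per cell. C1q cells were 3.01% (NCD), 9.04% and 23.5% (HFD) and 5.27% (JQF) of the kept cells, so that HFD replicate 2 stood apart in its macrophage content. Pairs of libraries shared 12 to 27 kept barcodes, and no barcode was shared between members.

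Members were rare on normal chow and more frequent in every library of mice that had been fed the high-fat diet. There were 3 members in the NCD library, 44 in HFD replicate 1, 87 in HFD replicate 2 and 47 in the JQF library. Their share of kept cells was 0.0502% in NCD, with an exact Clopper-Pearson 95% interval of 0.0104% to 0.147%. It was 0.675% (0.491% to 0.905%) and 0.848% (0.680% to 1.05%) in the HFD libraries and 0.550% (0.405% to 0.731%) in the JQF library. These intervals cover counting error only. The HFD mean was 0.762% ± 0.122 (SD, n = 2), and the log2 ratio of the HFD mean to NCD was 3.92. The exact permutation test, two-sided, gave p = 0.333 for HFD against NCD, which is the smallest value that 1 library against 2 can give. The JQF share lay below both HFD shares, with a log2 ratio of -0.47 to the HFD mean. The exact permutation p of that difference was 0.667, because setting HFD replicate 2 apart from the other 2 libraries gives a larger difference than setting JQF apart.

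The comparison of JQF with HFD depended on what the members were counted against. As a share of the 180, 589, 2408 and 450 C1q cells of the NCD, HFD replicate 1, HFD replicate 2 and JQF libraries, members made up 1.67%, 7.47%, 3.61% and 10.4%. On that scale the JQF share was above both HFD shares, with a log2 ratio of 0.91 (exact permutation p = 0.667). The HFD libraries differed from each other on that scale more than on the scale of kept cells, at 5.54% ± 2.73 (SD, n = 2). As a share of cells with a UMI of Ptprc, the gene of the pan-leukocyte surface protein CD45, members made up 0.127%, 0.737%, 1.01% and 0.631% in the same order, which again placed JQF under both HFD libraries. When each cell was thinned to 3000 UMIs, which brings all cells to 1 depth and leaves out shallower ones, the rule took 4, 37, 92 and 32 cells, or 0.0765%, 0.635%, 1.04% and 0.402% of the cells left. A direction of the JQF difference was therefore not established.

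**Figure D1:**
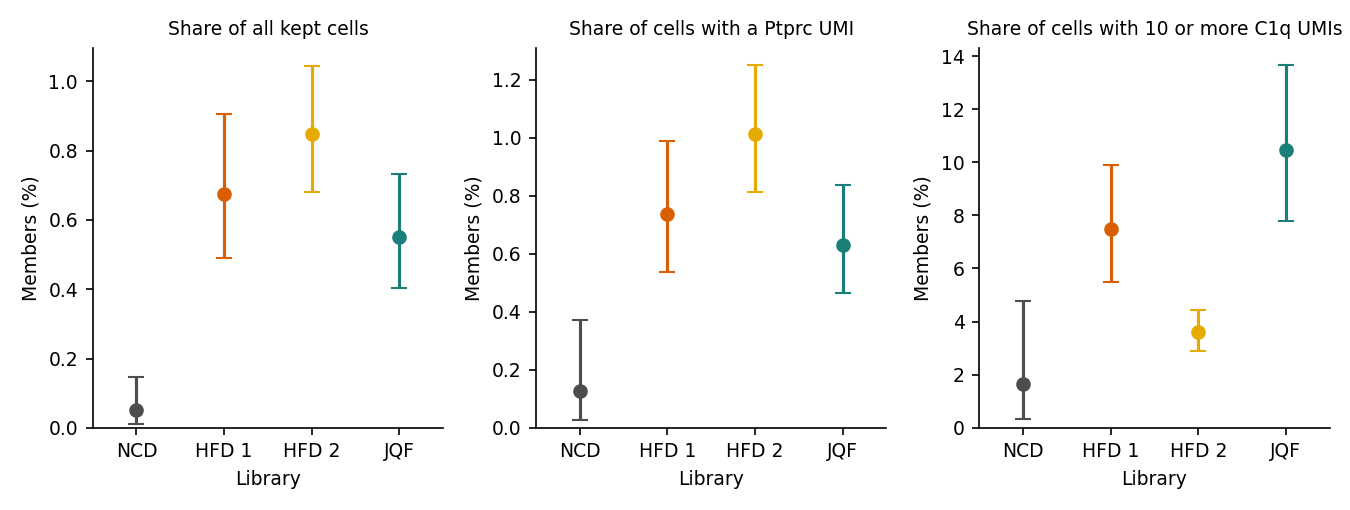
Members as a percentage of all kept cells, of cells with a Ptprc UMI and of cells with 10 or more C1q UMIs (y axes, percent), by library (x axes), with points for the share and bars for the exact 95% interval. The NCD share is lowest in each panel, at 0.0502% of kept cells, and JQF lies below both HFD libraries in the first 2 panels and above both in the last, at 10.4% of C1q cells.

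The limits of the rule removed different cells in different libraries. Of cells that met the C1q and the Cx3cr1 and Ccr2 minimums (27, 259, 763 and 178 in the order NCD, HFD, HFD, JQF), 64.1% and 56.0% in the HFD libraries and 39.3% in the JQF library held a UMI of Spp1 or Gpnmb. A UMI of Clec4f was held by 17.0% and 40.2% of them in HFD and by 13.5% in JQF. In NCD, of 27 such cells, 59.3% held more than 1 UMI of Cxcl9 (6.95% and 13.4% in HFD), 44.4% a UMI of Clec4f and 40.7% one of Timd4 (0.772% and 3.93% in HFD), so the low NCD share also depends on these limits. Members are thus what was left after these genes were gated out, and their share depends by construction on those genes as well as on Cx3cr1 and Ccr2.

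Most members held UMIs of both chemokine receptor genes. Of the 181, 129 (71.3%) held UMIs of both, 24 (13.3%) held Cx3cr1 alone and 28 (15.5%) held Ccr2 alone. Both were found in 63.6%, 74.7% and 74.5% of members of HFD replicate 1, HFD replicate 2 and JQF. Ccr2 alone was found in 20.5%, 17.2% and 6.38% in the same order, which was 9, 15 and 3 cells, and the 95% intervals of these shares overlapped. Median UMIs of Cx3cr1 and Ccr2 together were 5, 8 and 9 per member in these libraries, against medians of 9969.5, 11421 and 13489 UMIs per cell, and median C1q UMIs were 37.5, 50 and 62. These values were set by the rule and are given as a description. Single UMIs of these genes were not particular to macrophages: T cells held a UMI of Ccr2 in 26.6%, 21.4% and 38.0% of cells and one of Cx3cr1 in 11.1%, 12.4% and 7.15%. Cells just inside the limits were few: 7 members of the HFD and JQF libraries held 10 or 11 C1q UMIs, where 15 cells with 8 or 9 fell just outside, and 16 members held exactly 2 UMIs of Cx3cr1 and Ccr2, where 27 cells with 1 fell outside. Pooled over these libraries, the cells just outside at 1 UMI had 226 CPM of Negr1 and 2752 CPM of H2-Aa, against 208 and 5250 CPM in the members with 2. At the C1q limit Negr1 was at 14.3 CPM in the members with 10 or 11 UMIs and at 0 in the cells with 8 or 9, so it was nearly absent on both sides. CPM is the number of UMIs of a gene per 1000000 UMIs summed over the cells of a group, and elsewhere in the text it is given for each library on its own.

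**Figure D2:**
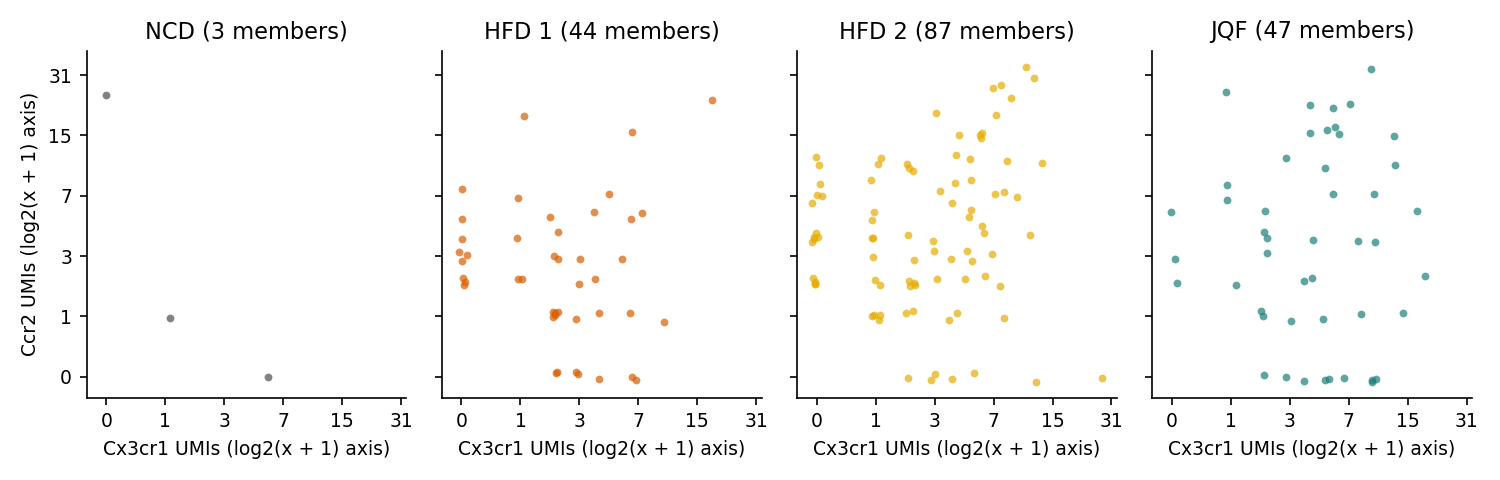
UMIs of Cx3cr1 (x axis) against UMIs of Ccr2 (y axis) in each member, on log2(UMIs + 1) axes with small random offsets, 1 panel per library and 1 point per cell. Most points lie away from both axes, as for the 71.3% of members with UMIs of both genes.

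The cells looked like macrophages that carried antigen-presenting genes, and a part of them held UMIs of monocyte genes. For the comparison, 3 gates were set on the same kept cells: lipid-associated macrophages (C1q cells with at least 2 UMIs of Spp1 and Gpnmb and none of Clec4f or Timd4), Clec4f macrophages (C1q cells with Clec4f, the Kupffer cell lectin) and classical monocytes (at least 2 UMIs of Ly6c2, no more than 2 of C1q and none of Clec4f, Timd4, Spp1 or Gpnmb). Like the members, they held no UMI of the T cell, B cell and type 1 dendritic cell genes above. In the HFD and JQF libraries these held 31 to 217, 78 to 802 and 229 to 365 cells. All gates were cut from expression in the same cells, so levels in them are a description without a test. The monocyte gate was mixed: the NK and T cell gene Klrd1 was at 151, 81.8 and 119 CPM there, against 164, 141 and 136 CPM in T cells, and Ccr2 was found in 71.4%, 71.2% and 69.9% of its cells. Values below are in CPM and follow the order HFD replicate 1, HFD replicate 2, JQF.

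Among the marker genes proposed for these cells that the rule did not use, Negr1, which encodes a cell adhesion protein best known from neurons, stood highest above the comparison gates. It was at 197, 62.0 and 120 CPM in members. In lipid-associated macrophages it was at 43.9, 10.6 and 50.002 CPM, in Clec4f macrophages at 17.0, 14.4 and 6.94 CPM and in classical monocytes at no more than 5.401 CPM. Even so, a minority of members held it: 29.5% (95% interval 16.8% to 45.2%), 12.6% (6.48% to 21.5%) and 29.8% (17.3% to 44.9%). In T cells, which should lack the gene, 0.0717% to 0.283% of cells of these libraries held a UMI, so the share in members was above the level that free RNA gives there. Fcgr2b, the inhibitory Fc receptor, was at 252, 236 and 244 CPM and was found in 70.5%, 69.0% and 83.0% of members. It was as high in lipid-associated macrophages of JQF, at 284 CPM, and reached 200 CPM in classical monocytes, so it marked members off from Clec4f macrophages (17.0, 55.9 and 12.7 CPM) and less from the others. Cd93, a receptor of myeloid and endothelial cells, was at 138, 177 and 180 CPM and lay under the lipid-associated macrophages (167, 230 and 293 CPM) in each library. Of these 3 genes, Negr1 alone was above all 3 gates in each library. The other proposed markers, C1qa, Cx3cr1 and Ccr2, were part of the rule, so their presence is no check.

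Genes of antigen presentation through MHC class II were high against the 3 gates. No gate of dendritic cells was set, so members were not compared with such cells. H2-Eb1, an MHC class II chain, was at 6653, 5778 and 7066 CPM in members, against 3779, 4028 and 5193 CPM in lipid-associated macrophages and 521, 1054 and 772 CPM in classical monocytes. Cd74, the invariant chain that escorts MHC class II, was at 11976, 11433 and 15176 CPM. Ciita, the master activator of these genes, was at 225, 244 and 236 CPM and was above each of the 3 gates in each library, as was H2-Ab1, at 6251, 5492 and 6533 CPM. Tmem176a and Tmem176b, a pair of neighbouring genes for membrane proteins of antigen-presenting cells, were at 287 to 399 CPM and 433 to 578 CPM. Sirpb1a, a signal-regulatory protein receptor gene, was at 118, 75.7 and 91.7 CPM, and did not exceed 43.2 CPM in any gate of these libraries. H2-Eb1, H2-Ab1, Cd74 and Ciita were among the 15 genes with the highest ratio of members to the mean of the gates, at 2.55, 2.29, 2.16 and 3.10 times, with Negr1 at 6.02 and Sirpb1a at 4.31 in front. The rest of the 15 were Gm34084, Adgrl3, Gm20513, Arhgap22, Clec4b1, Bach2 and Maml3 beside the Tmem176 pair, with ratios of 2.23 to 3.04.

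Several macrophage and monocyte genes lay between the levels of the gates. Mertk, the receptor by which macrophages take up dying cells, was at 409, 468 and 329 CPM, under the lipid-associated macrophages (608, 574 and 539 CPM) and far above the monocytes, which did not exceed 10.2 CPM. Trem2, a lipid receptor of lipid-associated macrophages, was at 184, 174 and 163 CPM, against 682, 473 and 420 CPM in that gate. Members had a UMI of Trem2 in 75.0%, 57.5% and 72.3% of cells, where T cells did in 0.735% to 2.51%. The apolipoprotein gene Apoe was at 13958 to 16869 CPM, against at most 1683 CPM in monocytes. On the monocyte side, Ly6c2, the surface protein gene of classical monocytes, was at 48.1, 63.9 and 91.7 CPM and was found in 18.2% to 23.4% of members. That was under its level in T cells of the same libraries (253 to 304 CPM) and far under the monocyte gate (770 to 896 CPM), which was cut on this gene. Lipid-associated macrophages held Ly6c2 at 48.02, 38.5 and 10.7 CPM, in 15.9%, 17.97% and 16.1% of cells. Members hardly differed from that gate in HFD replicate 1 and were above it in HFD replicate 2 and JQF. A UMI of Ly6c2 was thus not particular to members among the macrophages. Plac8, another gene of classical monocytes, was at 639, 999 and 376 CPM, above the macrophage gates and under the monocytes (2238, 3150 and 1655 CPM). It was found in 16, 58 and 14 members, and 53.8%, 24.3% and 68.6% of its UMIs came from 3 cells. The summed level is therefore not a level of each cell. T cells held Plac8 at 131, 149 and 230 CPM. Other genes of the classical monocyte list were not above lipid-associated macrophages in both HFD libraries. Hp was at 39.4, 101 and 169 CPM, against 52.1, 104 and 37.5 CPM in that gate. Fn1 was at 96.2, 209 and 94.8 CPM, against 193, 346 and 48.2 CPM. Chil3 was at 56.9, 46.2 and 132 CPM, against 49.0, 71.7 and 91.1 CPM. All 3 were far under the monocytes, which held them at 483 to 820 CPM. Not all genes lay between the gates: Cd14, a lipopolysaccharide coreceptor gene, was at 107, 216 and 183 CPM, below all 3 gates in each library.

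Members also varied among themselves. Cd5l, Vsig4 or Folr2, genes of resident Kupffer cells that the rule did not gate, were found in 25.0%, 49.4% and 17.0% of members, or 11, 43 and 8 cells. Ly6c2 or Plac8 were found in 38.6%, 69.0% and 36.2%. A gene of the former set and a gene of the latter were found together in 2.27%, 28.7% and 4.26%. HFD replicate 2 thus held most cells with a UMI of both kinds, at 25 of 28. Many of these 25 held a single UMI of 1 of the sets, often of Cd5l. After thinning to 3000 UMIs these shares were 2.33%, 16.3% and 2.27%, and HFD replicate 2 stayed apart. T cells, which should lack Vsig4, held a UMI of it in 0.110%, 4.37% and 1.61% of cells, highest in the same library. Cd5l in T cells was at 3.51, 24.9 and 2.92 CPM, also highest there. The part of such free RNA in the result was not tested. Cd163 was found in 0, 2 and 1 members and the vascular macrophage gene Lyve1 in 0, 1 and 0, so these messages were not detected in most members at this depth.

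**Figure D3:**
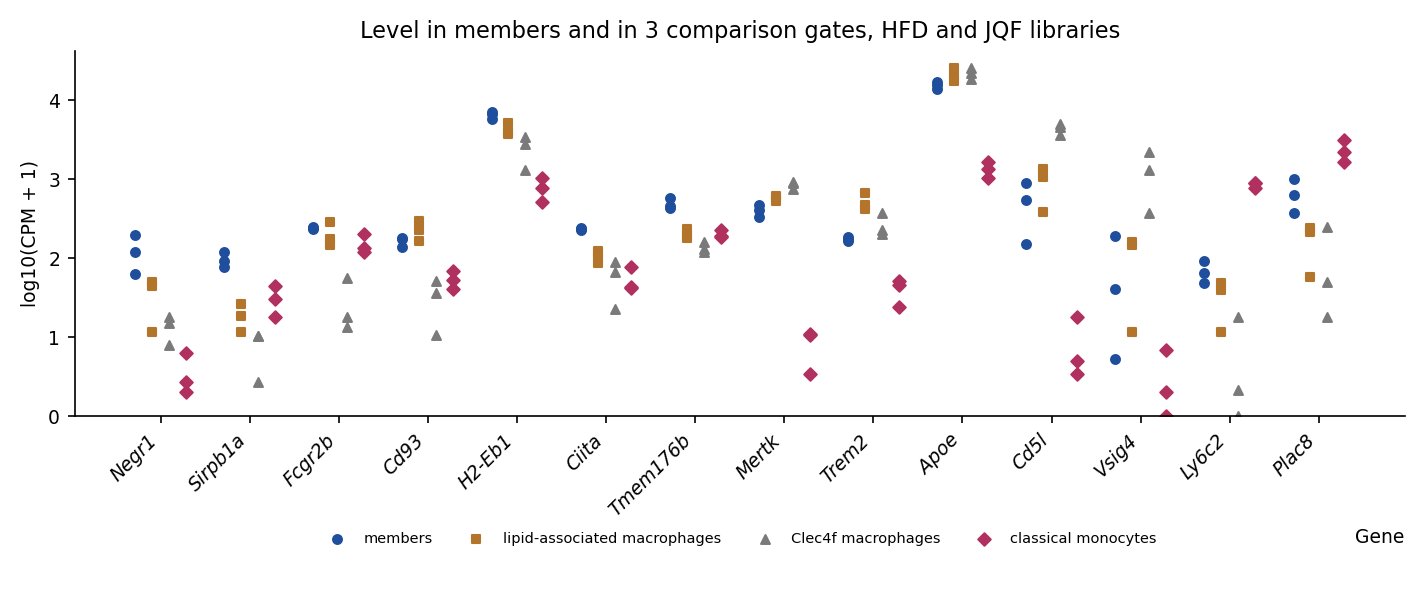
Level of 14 genes, as log10(CPM + 1) (y axis), in members and in the 3 comparison gates, with 1 point for each of the 2 HFD libraries and the JQF library. Negr1, Sirpb1a and Ciita lie highest in members, Trem2 is highest in lipid-associated macrophages, Cd5l and Vsig4 in Clec4f macrophages and Ly6c2 and Plac8 in classical monocytes.

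Gene expression in members could be tested between JQF and HFD. UMIs were summed over the members of each library and compared with edgeR's quasi-likelihood test. In it the 2 HFD libraries gave the 1 residual degree of freedom, and the JQF library was assumed to vary as they did. The test drew the variance of each gene toward a variance shared across genes, with 15.1 prior degrees of freedom. Its p values and SEs thus rest mostly on that shared variance. The summed members held 457231, 1016639 and 643529 UMIs. The NCD library, with 3 members and 54059 UMIs, was under the minimum of 20 members and did not enter the test. Of 7570 genes tested, 15 were higher in JQF and 3 were lower at an adjusted p under 0.05, that is 0.238% of all genes tested (0.198% higher and 0.0396% lower). The median log2 fold change over all genes was -0.01, 48.7% of genes had a positive one, and 565 genes had an unadjusted p under 0.05. The number of calls moved with the settings. The same test gave 136 genes with a C1q minimum of 20 and 123 with a mitochondrial maximum of 10%, and DESeq2 called 3. Those 3 were Rsad2, Cd5l and Cxcl2, so DESeq2 kept none of the other 15 calls (adjusted p of 0.165 and above). Of the 18 genes, 8 were abundant enough to be tested after thinning to 3000 UMIs, and 3 of them (Rsad2, Cd5l and Tcof1) were still called. Scaling by library totals gave 41 higher and 59 lower genes, against 15 and 3. Predicted doublets among the members numbered 7, 9 and 4, and 69 genes passed without them.

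**Figure D4:**
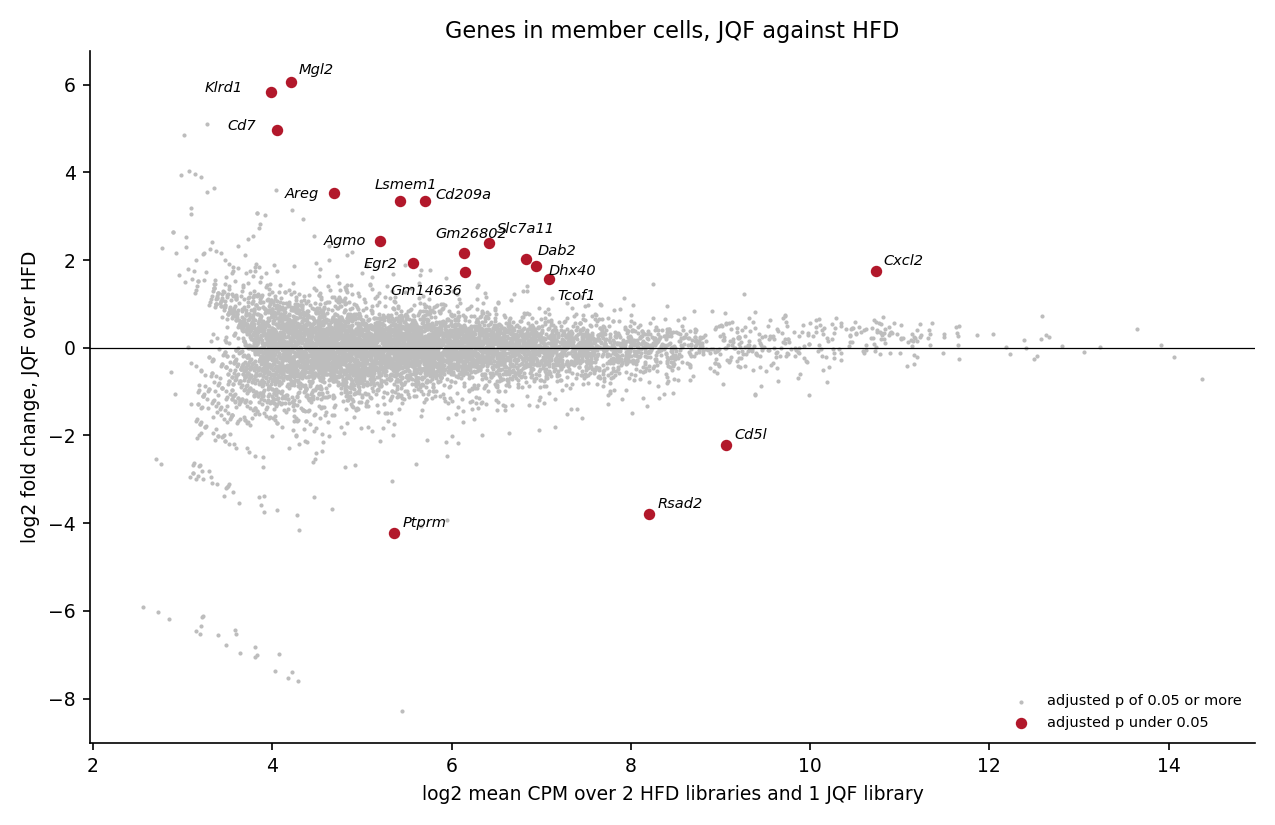
log2 fold change of JQF over HFD (y axis) against log2 mean CPM (x axis) for the 7570 genes tested in members, with the 18 genes at an adjusted p under 0.05 in red and named. Rsad2, Cd5l and Ptprm lie below 0 and the other 15 above, and the grey points under -5 are genes without a UMI in JQF, none of them called.

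The lowest adjusted p belonged to Rsad2, which encodes viperin, an antiviral protein induced by interferon (GRCm38, chromosome 12, 26442746 to 26456452, minus strand, protein coding). It was at 402 and 451 CPM in members of the HFD libraries and at 29.5 CPM in JQF, so the JQF value lay far under both. The 3 NCD members, which were not tested, held 1 UMI. The log2 fold change, JQF over HFD, was -3.79 ± 0.40 (SE) with an edgeR adjusted p of 0.000381. UMIs were found in 11, 48 and 11 cells. In HFD replicate 1, 94.0% of them came from 3 cells, against 37.0% in HFD replicate 2. Without the top 3 cells of each library 11, 289 and 9 UMIs were left (24.06, 284 and 13.99 CPM), so the difference then rested on HFD replicate 2. The log2 ratio was then -3.00, with 5 CPM added to each level, which pulls a ratio toward 0. All log2 values of genes given below without the top cells or against a single HFD library were made so, and are not on the scale of edgeR's fold change. A UMI was found in 25.0%, 55.2% and 23.4% of members, so the share of cells with the message in JQF was near that of HFD replicate 1 although the CPM was not. Rsad2 was called in 13 of 13 alternatives with a test. In the comparison gates its levels were 154, 278 and 270 CPM in lipid-associated macrophages, 97.6, 238 and 247 CPM in Clec4f macrophages, where JQF was highest, and 221, 154 and 64.7 CPM in classical monocytes, and T cells were at 82.7, 50.9 and 65.5 CPM.

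No other interferon-stimulated gene passed the test. Of 36 genes of the list that were tested, 31 had a negative log2 fold change and 5 a positive one, with a median of -0.53, against -0.01 over all genes, and only Rsad2 was called. Oasl1, an antiviral oligoadenylate synthetase-like gene, was at 236, 193 and 77.7 CPM (log2 fold change -1.40, edgeR adjusted p = 0.132). Irf7, a transcription factor of the interferon response, was at 160, 193 and 76.1 CPM (log2 fold change -1.17, edgeR adjusted p = 0.256). The HFD libraries themselves differed on this list: 31 of the 36 genes were higher in HFD replicate 2, with a median log2 ratio of 0.55. The median of the JQF log2 difference was -0.82 against HFD replicate 2 alone and -0.22 against HFD replicate 1 alone. Summed over the list, levels were 6126 and 7242 CPM in HFD and 4399 CPM in JQF in members, and 4814, 3393 and 4189 CPM in T cells.

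Of the genes of Kupffer cells, Cd5l fell. Cd5l, a secreted scavenger protein made by macrophages, was at 556 and 903 CPM in HFD and 151 CPM in JQF, a log2 difference of -2.23 ± 0.37 (SE) with an edgeR adjusted p of 0.0111. UMIs were found in 10, 40 and 6 cells, and 95.9% of those in JQF came from 3 cells, 83 of the UMIs from 1 of them. In HFD replicate 1 the share of 3 cells was 86.6%. Without the top 3 cells of each library the levels were 74.4, 628 and 6.22 CPM. With 5 CPM added to each level the log2 ratio was -5.02, so the size of the difference was not stable. The call was lost at a mean of at least 50 CPM (edgeR adjusted p = 0.0977). In lipid-associated macrophages Cd5l was at 1057, 1345 and 389 CPM, also lowest in JQF, while in Clec4f macrophages it was at 3679, 4670 and 5041 CPM. Of 16 list members tested, 14 had a negative and 2 a positive log2 fold change, with a median of -1.26 that stayed below 0 in each of 16 alternative settings (-1.56 to -0.74). Slc40a1, the iron exporter, was at 271, 389 and 115 CPM (log2 fold change -1.48, edgeR adjusted p = 0.107). The third gene that fell, Ptprm, a receptor phosphatase gene, was at 37.2, 82.6 and 3.11 CPM, with 2 UMIs in JQF (log2 fold change -4.23, SE 0.75, edgeR adjusted p = 0.0187). The ratio of JQF to HFD was 0.0454, with an exact 95% counting interval of 0.00542 to 0.168, which takes each UMI as independent. The call was lost with DESeq2 and with the NCD library included (edgeR adjusted p = 0.0668). With 5 CPM added to each level, the log2 ratio was -2.40 without HFD replicate 2 and -3.45 without HFD replicate 1. The added 5 CPM pulls these ratios toward 0, so they cannot be set against -4.23. Lipid-associated macrophages held Ptprm at 43.4, 45.1 and 7.14 CPM, also lowest in JQF, and Clec4f macrophages at 283, 404 and 819 CPM, highest in JQF.

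Of genes for chemokines and early-response factors, Cxcl2 and Egr2 rose in JQF members. Cxcl2, a chemokine for neutrophils, was at 755 and 1195 CPM in HFD and 3147 CPM in JQF, a log2 difference of 1.74 ± 0.27 (SE) with an edgeR adjusted p of 0.00937. UMIs were found in 11, 51 and 27 cells. After thinning to 3000 UMIs the log2 fold change was 0.77 and was not called (edgeR adjusted p = 0.205). It was also higher in JQF in lipid-associated macrophages (801, 1705 and 5759 CPM) and in classical monocytes (2116, 2034 and 4327 CPM). Egr2, an early growth response factor, was at 21.9, 27.5 and 93.2 CPM (log2 fold change 1.92, SE 0.36, edgeR adjusted p = 0.0319), but the call was lost with DESeq2 and with the NCD library included (edgeR adjusted p = 0.0893). Cxcl2 was called with DESeq2 and not at a mean of at least 50 CPM (edgeR adjusted p = 0.0926). Tnf, the inflammatory cytokine gene, was at 155, 232 and 522 CPM and did not pass (log2 fold change 1.46, edgeR adjusted p = 0.059), and Egr1 was at 420, 446 and 979 CPM (log2 fold change 1.23, edgeR adjusted p = 0.0711). Both Cxcl2 and Tnf were found in 13.6%, 39.1% and 42.6% of members. In the 3 NCD members, which were not tested, Cxcl2 was at 3718, Tnf at 2516, Egr1 at 2627 and Egr2 at 425 CPM. Over the lists, 21 of 31 immediate early and stress genes had a positive log2 fold change (median 0.26, Egr2 called), and 15 of 32 cytokine and chemokine genes did (median -0.04, Cxcl2 called). Summed over the immediate early and stress list, levels were 19583, 27047 and 27955 CPM in members and 17791, 16384 and 24556 CPM in T cells, and the part of this difference between libraries in the results was not tested.

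Of genes of dendritic cells, Cd209a and Mgl2 rose, in a few cells. Cd209a, a C-type lectin gene of monocyte-derived dendritic cells (GRCm38, chromosome 8, 3743397 to 3748984, minus strand, protein coding), was at 15.3 and 11.8 CPM in HFD and 129 CPM in JQF, a log2 difference of 3.34 ± 0.38 (SE) with an edgeR adjusted p of 0.000585. It was found in 2, 5 and 6 cells, and 75.9% of its UMIs in JQF came from 3 of them. Classical monocytes held it at 38.8, 60.7 and 129 CPM, in 10.2%, 9.59% and 20.5% of cells, and T cells at 6.89, 3.02 and 20.4 CPM, so it was highest in the JQF library in those gates too. Mgl2, a galactose lectin gene of the same cell type, was at 0, 0.984 and 54.4 CPM (log2 fold change 6.05, edgeR adjusted p = 0.00574), with UMIs in 0, 1 and 5 cells. In JQF 94.3% of the UMIs of Mgl2 came from 3 cells. Without the top 3 cells of each library 0, 0 and 2 UMIs were left, too few for a fold change. The call of Mgl2 was lost with a C1q minimum of 5 (log2 fold change 2.75, edgeR adjusted p = 0.0525). DESeq2 called neither Cd209a (adjusted p = 0.165) nor Mgl2 (0.538). Klrd1, an NK cell receptor gene that dendritic cells can also carry, was at 0, 0.984 and 46.6 CPM, in 0, 1 and 10 cells (log2 fold change 5.83, edgeR adjusted p = 0.018; DESeq2 adjusted p = 0.980). The HFD libraries together held 1 UMI of each, and the ratios of JQF to HFD were 80.2 for Mgl2 and 68.7 for Klrd1. Their exact 95% counting intervals were 13.5 to 3255 and 11.4 to 2803. These intervals take each UMI as independent, although 94.3% and 60% of the JQF UMIs of these genes came from 3 cells, so they are too narrow. With 5 CPM added to each level, log2 ratios without HFD replicate 1 or 2 were 3.34 and 3.60 for Mgl2, 3.13 and 3.398 for Klrd1. For Cd209a they were 3.00 and 2.73. The ratios of Mgl2 and Klrd1 depend on the added 5 CPM, as HFD held almost no UMI of either gene. Cd7, another lymphoid gene, was at 46.6 CPM in JQF from 3 cells and had no UMI there without them. Of its 30 UMIs in JQF, 28 came from 1 cell, which also held 34 of the 41 JQF UMIs of Areg, another called gene. Without predicted doublets neither Cd7 nor Areg was abundant enough to be tested. At least 2 of Cd209a, Flt3, Mgl2, Klrd1 and Cd7 were found together in 1, 3 and 9 members, which was 2.27% (0.0575% to 12.02%), 3.45% (0.717% to 9.75%) and 19.1% (9.15% to 33.3%). After thinning to 3000 UMIs they were 1, 1 and 5 cells, or 2.33%, 1.16% and 11.4% (3.79% to 24.6% in JQF). This set was put together after the levels had been seen. Of 11 dendritic cell genes tested, 9 had a positive log2 fold change (median 0.29), with Cd209a and Mgl2 called. Over all genes tested, 48.7% had a positive one and 0.238% were called. The gene filter let a gene in when 1 library alone held enough UMIs. Genes almost absent in HFD, such as Mgl2, Klrd1 and Cd7, were thus tested through JQF alone. Their positive sign was set by that filter and is no support.

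The remaining genes that rose had other functions. Slc7a11, the cystine transporter, was at 35.0, 37.4 and 183 CPM (log2 fold change 2.38, SE 0.34, edgeR adjusted p = 0.00491). In JQF 86.4% of its UMIs came from 3 cells, and 78 of its 118 UMIs there came from 1 cell. Without the top 3 cells of each library the log2 ratio, with 5 CPM added to each level, was 1.15. It was also highest in JQF in lipid-associated macrophages (34.1, 87.6 and 314 CPM), Clec4f macrophages (40.3, 20.0 and 151 CPM) and classical monocytes (75.6, 91.4 and 258 CPM). Dab2, an endocytic adaptor of macrophages, was at 52.5, 61.0 and 227 CPM (log2 fold change 2.03, SE 0.31, edgeR adjusted p = 0.00937) and was found in 11, 31 and 23 cells, so it was spread more widely than the dendritic cell genes. After thinning to 3000 UMIs its log2 fold change was 0.72 (edgeR adjusted p = 0.748). DESeq2 called none of Slc7a11, Dab2, Agmo, Lsmem1 and Dhx40. Agmo, an ether lipid monooxygenase gene, was at 13.1, 16.7 and 80.8 CPM in 4, 8 and 18 cells (log2 fold change 2.43, edgeR adjusted p = 0.0108). In Clec4f macrophages Dab2 was at 113, 217 and 336 CPM and Agmo at 60.5, 95.2 and 178 CPM, both highest in JQF. Lsmem1 was at 10.9, 10.8 and 107 CPM in 4, 5 and 14 cells (log2 fold change 3.34, edgeR adjusted p = 0.000641), and at 10.8, 11.6 and 193 CPM in lipid-associated macrophages and 23.97, 5.99 and 71.7 CPM in classical monocytes. Dhx40, an RNA helicase gene, was at 63.4, 69.8 and 235 CPM (log2 fold change 1.86, edgeR adjusted p = 0.0111), and the same step was seen in T cells (128, 122 and 577 CPM) and in classical monocytes (142, 83.6 and 514 CPM), while Clec4f macrophages were at 55.2, 87.2 and 94.8 CPM. In JQF 65.6% of its UMIs in members came from 3 cells. Without the top 3 cells the log2 ratio, with 5 CPM added to each level, was 0.99. The call was lost without predicted doublets (log2 fold change 0.90, edgeR adjusted p = 0.357) and after thinning. Higher levels of Slc7a11, Lsmem1 and Dhx40 in JQF were thus also present in several of the other cell groups. Tcof1, Gm26802, Gm14636 and Areg were the other calls. The UMIs of Areg in JQF came from 2 cells, most of them from the cell that held most of the Cd7 UMIs.

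**Figure D5:**
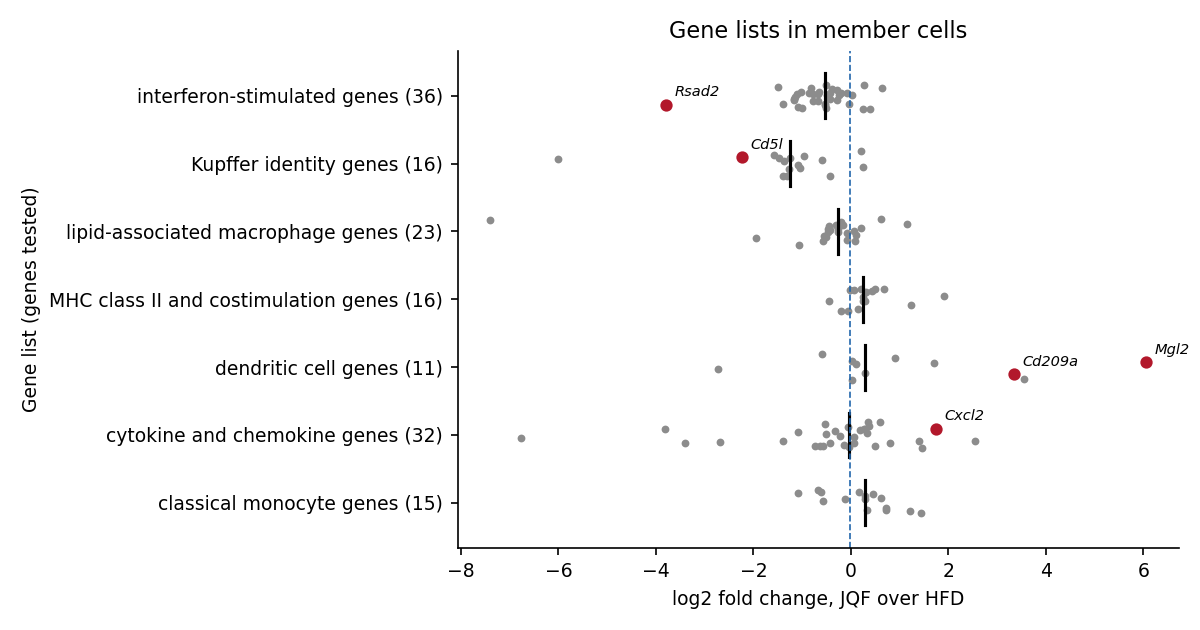
log2 fold change of JQF over HFD (x axis) for the tested genes of 7 lists (y axis, with the number tested), 1 point per gene, red and named at an adjusted p under 0.05, with a black bar for the list's median and a dashed line for the median over all genes. Interferon-stimulated and Kupffer identity genes lie mostly below 0, with medians of -0.53 and -1.26, and MHC class II and dendritic cell genes mostly above, with medians of 0.25 and 0.29.

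The genes by which the members are known did not pass the test. Negr1, Fcgr2b and Cd93 had a median log2 fold change of 0.06 and 0 of the 3 were called. None of 16 MHC class II and costimulation genes was called, with 12 positive and 4 negative (median 0.25): Cd74 had one of 0.43 ± 0.17 (SE; edgeR adjusted p = 0.508) and the costimulatory gene Cd86 was at 451, 624 and 836 CPM (log2 fold change 0.69, edgeR adjusted p = 0.588). None of 23 lipid-associated macrophage genes was called (6 positive, 17 negative, median -0.27). Among them the tetraspanin gene Cd9 was at 133, 120 and 270 CPM (log2 fold change 1.16, edgeR adjusted p = 0.163) and the lipase gene Lpl at 446, 358 and 185 CPM (log2 fold change -1.06, edgeR adjusted p = 0.278). None of 15 classical monocyte genes was called (10 positive, median 0.29), where Plac8 had a fold change (log2) of -1.08 (edgeR adjusted p = 0.296), nor any of 10 nonclassical monocyte genes (median -0.39), where the ribonuclease gene Ear2 was at 225, 229 and 71.5 CPM (log2 fold change -1.61, edgeR adjusted p = 0.0595). None of 8 Fc receptor genes (median -0.01), 14 efferocytosis and scavenger receptor genes (median -0.22), 14 microglia-type genes (median 0.05), 27 growth factor and chemokine receptor genes (median -0.17), 17 adhesion genes (median 0.24), 15 matrix genes (median -0.36) or 10 complement genes (median -0.33) was called. Of 53 macrophage transcription factor genes 1 was called (Egr2), with a median of 0.06. The medians depended on the setting. After thinning to 3000 UMIs the median turned for the classical monocyte (-0.87), lipid-associated macrophage (0.07), efferocytosis (0.03), complement (0.07), matrix (0.37) and transcription factor (-0.14) genes, and without the top 3 cells per gene it was -0.03 for the classical monocyte genes. No direction was therefore established for these lists. A gene that missed the threshold was not shown to be equal in JQF and HFD. The JQF group had 1 library, and the spread between animals was known from 2 HFD libraries only.

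Other genes with large differences did not pass the test. Cd274, the gene of the checkpoint ligand PD-L1, was at 101, 231 and 45.1 CPM (log2 fold change -1.87, edgeR adjusted p = 0.155). Ddhd1, a phospholipase gene, was at 256, 148 and 66.8 CPM and the long noncoding gene Gm26917 at 276, 103 and 49.7 CPM. Fabp5, a fatty acid binding protein gene of lipid-associated macrophages, was at 212, 55.1 and 31.1 CPM, so the HFD libraries stood farther apart than HFD replicate 2 and JQF. Vcam1, an adhesion molecule gene, was at 287, 305 and 127 CPM, the Fc receptor gene Fcgr4 at 304, 292 and 146 CPM and the scavenger receptor gene Scarb1 at 177, 116 and 55.9 CPM, each with the JQF value below both HFD values. Ccl2, the ligand of Ccr2, was at 59.1, 89.5 and 196 CPM (log2 fold change 1.40, edgeR adjusted p = 0.107), Chil3, a chitinase-like gene of classical monocytes, at 56.9, 46.2 and 132 CPM, and the transcription factor gene Mef2c at 45.9, 67.9 and 135 CPM, each with the JQF value above both HFD values.

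Lists of other cell types and of cell division were read beside these results. All 11 cycling genes tested had a negative log2 fold change (median -1.49), but without the top 3 cells per gene the median was -0.05, and it was 0.13 without predicted doublets and 0.36 after thinning, and Mki67 and Top2a were found together in 2, 1 and 0 members. All 6 capsular and perivascular macrophage genes were negative against both HFD libraries together (median -0.67), and 4 were positive against HFD replicate 1 alone (median 0.49). Hepatocyte markers summed to 300, 579 and 533 CPM in members and 140, 463 and 544 CPM in T cells, and endothelial markers to 400, 411 and 329 CPM, most of it Fcgr2b, which that list also holds. The neutrophil genes S100a8 and S100a9 were at 145 and 177 CPM in HFD replicate 2 alone, where 95.9% and 96.1% of their UMIs came from 3 cells. T and NK cell markers summed to 249, 155 and 132 CPM in members, B and plasma cell markers to 52.5, 65.9 and 112 CPM, and erythroid and platelet markers to at most 7.87 CPM. None of these lists had a call, and their part in the results was not tested. Of the 14 T and NK cell markers only 2 were abundant enough to be tested. That list did not hold Klrd1 and Cd7, which were called higher in JQF. T cells held Klrd1 at 164, 141 and 136 CPM and Cd7 at 121, 140 and 193 CPM.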

How the data were processed

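The deposited values are raw counts of UMIs per gene and cell barcode, which the authors made from 10x Genomics 3′ libraries with Cell Ranger and the mouse reference mm10. The submitters' processing notes name version 6.0.1, and the file headers name 7.0.0, so whether intronic reads were counted was not settled. The filtered matrices were used, and cells were kept from 500 detected genes up and to a mitochondrial share of 20%. The members and all gene lists were chosen with earlier results of these data known.

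Counts of members were summed per library, and libraries with at least 20 members were tested with edgeR 4.0.16 in R 4.3.3 (TMM scaling, filterByExpr, quasi-likelihood test, Benjamini-Hochberg adjustment over all genes, threshold 0.05), leaving out genes of the membership rule. Standard errors are the absolute log2 fold change over the square root of F. Log2 values of genes without the top 3 cells, or against a single HFD library, are ratios of CPM with 5 CPM added to each level. The same 5 CPM was added in the ratios to the comparison gates and between the HFD libraries. Such values are not on the scale of edgeR's log2 fold change. The fit was run on counts simulated from its own dispersion, with 200 of 7575 genes changed. It called 176 of the changed genes and 7 unchanged ones. JQF was simulated with the same spread as HFD, so that assumption was not checked. Genes were named when called, with up to 3 genes of each list by largest change at a mean of 50 CPM or more, up to 6 of the largest changes in a direction with few calls at 100 CPM or more, and 15 genes by their ratio to the comparison gates. Genes called under 50 CPM, members of the defining lists and the dendritic cell set were added after their values were seen. DESeq2 1.42.0, Scrublet in scanpy 1.11.5 (as many barcodes removed as its expected doublet rate) and other limits served as alternatives. Coordinates are from GENCODE M21 (GRCm38), matched by gene identifier. Cell types come from gates, as no annotation of cells was used here. The text describes the genes of this rule that its results turn on, and not all of them.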

Additional observations from a re-analysis of the deposited data

How the results depend on the processing

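The number of genes called between JQF and HFD in members (18) was 48 with a C1q minimum of 5, 136 with a minimum of 20, 133 with a Cx3cr1 and Ccr2 minimum of 1, 49 with a minimum of 3, 123 with a mitochondrial maximum of 10%, 69 without predicted doublets, 29 after thinning to 3000 UMIs, 100 with library totals (41 higher, 59 lower), 110 without a gene filter (fewer genes were tested otherwise), 5 at a mean of at least 50 CPM and 3 with DESeq2. It was 18 with DESeq2 size factors and 14 with the NCD library included, an alternative chosen after seeing the data. The cause of these differences was not tested. Rsad2 was called in each of its 13 alternatives with a test, Cd5l in 12 of 13 and Cxcl2 in 11 of 13.

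The log2 ratio of the JQF share to the HFD share (-0.47) became 0.91 when members were counted among C1q cells. Without HFD replicate 1 or 2 it was -0.62 and -0.30. The HFD to NCD ratio (3.92) was 4.08 and 3.75 without them, 2.78 among Ptprc cells and 1.73 among C1q cells (exact permutation p = 0.667). Some named genes changed sign, none of them called. With thinning these were Cd36 (0.26), Pf4 (0.50), Dnajb1 (-0.12), Pcna (0.36), Hmgb2 (0.36) and Trf (-0.48). With a Cx3cr1 and Ccr2 minimum of 1 they were Cd36 (0.35), Mmp13 (0.0792) and Tubb5 (0.0424), with a C1q minimum of 5 Hmgb2 (0.0255) and Tubb5 (0.0940), with a minimum of 20 Csf3r (-0.0580), without doublets Pcna (0.11), Hmgb2 (0.26) and Tubb5 (0.24), and with a mitochondrial maximum of 10% Tubb5 (0.000417).

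No test was possible with 1 HFD library left out, as no residual degree of freedom remained. The alternative fit of the 2 compared groups alone is the fit reported, and HFD against NCD was not tested for genes, with 3 NCD members. No paired analysis was possible because the groups compared share a single replicate number. With 44 to 87 members per library, genes under about 50 CPM rest on few cells.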
